A study of Saccharomyces cerevisiae with 10 samples.

Results

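Benomyl, a microtubule-destabilising drug whose target is beta-tubulin, was given to a pool of yeast deletion strains at low doses. The comparison described is between the arrays at 5 and 10 µg/ml benomyl and the arrays at 0 and 1 µg/ml, which is 2 arrays against 2 of the 10 in the series. The members were chosen by the labelled dose alone, and all 4 arrays had 2 days of selection. Per the labels, 5896 heterozygous diploid knockout strains of Saccharomyces cerevisiae were pooled and sporulated, and MATa haploids were selected from them at 30 °C on magic medium, which lets haploids of that kind grow and no other cells. All 4 arrays share this pool type, medium, temperature and length of selection, and they differ in the dose. The DNA barcodes of the strains were amplified from genomic DNA, labelled and hybridised to an array of barcode probes, the Cy5 label going to a pool without drug and the Cy3 label to a pool with drug. On the no-drug array both labels went to pools without drug. No dose has a second array, so each group joins 2 unlike doses. The labels do not say which arrays came from separate sporulations. The p-values below measure only the scatter among these 4 arrays, or among all 10 where that is said.

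Each value is a log2 ratio of barcode signals, relative to the median of the named spots on its array. The labels give the dyes but not which of them is the numerator. With Cy5 as numerator, the default of the GenePix program named in the labels, a ratio above 0 means that a strain was scarcer in the drug pool than the median strain. That direction is called likely, and with the opposite orientation all signs given below would be reversed. Values were obtained for 5325 strains, 5323 of them on all 4 arrays. The spots of a strain lie in 2 sections of the array layout, taken here to hold different barcodes, and 5098 strains had values from both. The ratios on the 10 µg/ml array were written in another form than on the other arrays, since 3.59% of them were whole hundredths (within 0.01 of one) against 99.95 to 100% at 0, 1 and 5 µg/ml. The handling of that array before deposit thus differed, and the part this plays in the values was not tested.

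Tubulin is made as an alpha and a beta chain that must be folded and joined. The prefoldin complex carries the new chains to a chaperonin, and a set of cofactors then holds the folded chains and joins them into the dimer that microtubules are built from. A haploid without one of these helpers has less usable tubulin, and strains of this kind are well known for sensitivity to benomyl. The pool also reports on genes far from microtubules, because every deletion in it is measured side by side on the same selective medium.

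Strains that lack CIN1, CIN2 or TUB3 of the tubulin machinery, or the prefoldin subunits PFD1 and GIM5, had some of the largest positive differences between 5 and 10 µg/ml and the lower doses. The tubulin list was not uniform, since its ALF1 and PAC2 strains had negative differences. Also on the positive side were strains without mitochondrial functions, among them ATP synthase, the supply of the citric acid cycle and signalling from mitochondria to the nucleus. On the other side stood strains lacking 1 of the genes for a cytosolic ribosomal protein, ribosome assembly factors, amino acid signalling to TORC1, the vacuolar ATPase, the peroxisome import machinery and the GID ubiquitin ligase. The lists for ATP synthase, carboxylic acid supply, ribosome assembly and GID were drawn up after the values were seen. Strains of the dynein pathway, the kinesins and the SWR1 chromatin complex were mostly close to the median. The 6 spindle checkpoint strains all had differences above 0, with a list median of 0.52 against 0.04 for all strains.

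The 4 arrays split by dose in 2 respects. Across the 5323 strains the ratios at 5 and 10 µg/ml correlated at 0.63, and those at 0 and 1 µg/ml at 0.02. The correlations across the groups were 0.01 to 0.14. These are descriptions across strains on single arrays, and strains measured on 1 array share its hybridisation. The standard deviation across strains was 0.51 at 0, 0.56 at 1, 0.89 at 5 and 0.86 at 10 µg/ml. The 2 sections of the layout, compared across strains, had correlations of -0.05 at 0 and 0.05 at 1 µg/ml, against 0.48 at 5 and 0.35 at 10 µg/ml. At 5 and 10 µg/ml 130 strains lay at least 2-fold above the median on both arrays, 378 at least 2-fold below on both and 26 on opposite sides. At 0 and 1 µg/ml 11 strains lay at least 2-fold above on both arrays and 23 below on both.

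No strain passed limma over the 4 arrays. With the adjusted p threshold of 0.05, limma called 0 strains higher (0.0% of 5323) and 0 lower (0.0%), and the lowest adjusted p, 0.1, was shared by 91 strains. At an unadjusted p below 0.05 limma gave 367 higher (6.89%) and 577 lower (10.8%). When the spread was taken from all 10 arrays in their 4 groups, limma called 41 strains higher (0.77%) and 100 lower (1.88%). The 6 further arrays had higher doses, 3 or 4 days of selection and standard deviations across strains of 0.72 to 1.46. Their spread is thus not that of the 4 arrays compared. The strains below are therefore described by size. A strain is called separated where both arrays of one group lay at least 1 log2 unit beyond both arrays of the other, which is no test. By this measure 113 strains (2.12%) were separated upward and 268 (5.03%) downward. Of these, 63 upward (1.24% of the 5098 strains with both sections) and 115 downward (2.26%) were separated in each section on its own. Of the 141 strains that limma called with the spread of 10 arrays, 139 were among the separated ones. Both measures read the same differences on the same 4 arrays, so this overlap is no separate support.

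Genes needed for haploid growth show how far this measure strays when no haploid strain is thought to carry the barcode. Of 180 such genes, 3 were separated upward (1.67%) and 14 downward (7.78%), and in both sections 0 and 3 of the 158 with both. Their median difference was -0.24 against 0.04 for all strains. These shares and those of all strains were not tested against each other, and counts in both sections are given beside most groups.

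**Figure D1:**
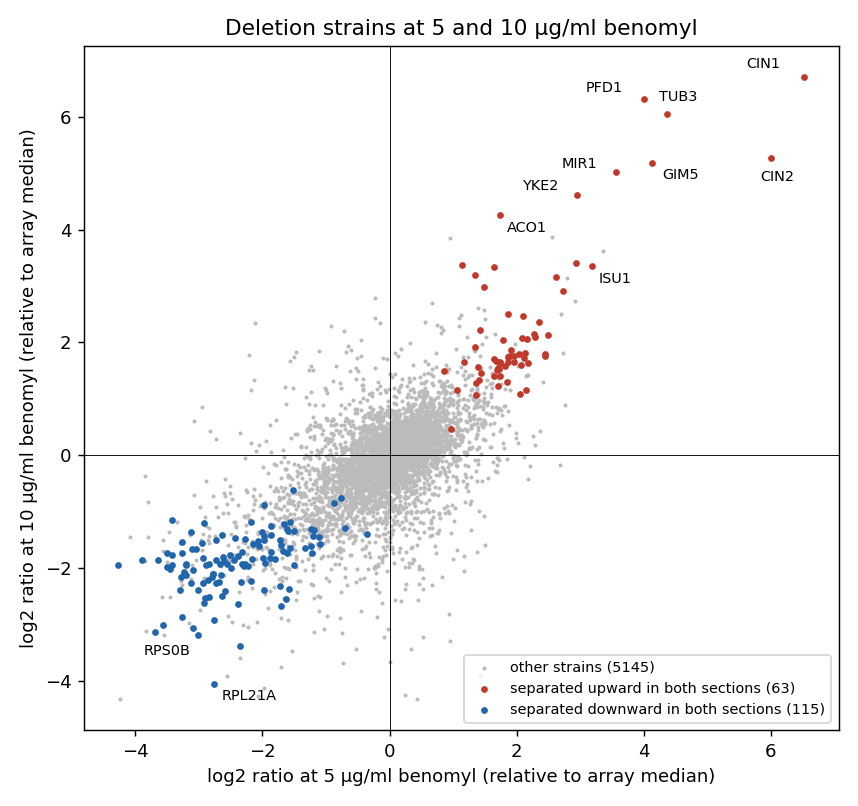
Each point is 1 deletion strain, with its log2 ratio at 5 µg/ml on the x axis and at 10 µg/ml on the y axis, both relative to the array median. Red points are the 63 strains separated upward and blue points the 115 separated downward from 0 and 1 µg/ml in both sections of the layout. CIN1, CIN2, TUB3, PFD1 and GIM5 lie farthest to the upper right.

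Among tubulin strains, the one without CIN1 (YOR349W), which encodes the tubulin cofactor D homolog, had the largest difference of all. Its log2 ratio was 0.10 at 0, 2.02 at 1, 6.52 at 5 and 6.71 at 10 µg/ml, a difference of 5.55 ± 0.69 (SE, n = 2 against 2 arrays), or 46.9-fold. It ranked 34 from the top at 1 µg/ml and 1 on both higher arrays, so the 1 µg/ml array already stood apart from the no-drug array in this strain. The CIN2 strain (YPL241C), lacking the cofactor C homolog, was at 0.00, 0.57, 6.01 and 5.28, a difference of 5.36 ± 0.38. The strain without TUB3 (YML124C), the minor alpha-tubulin gene, was at -0.02, 1.32, 4.36 and 6.06, a difference of 4.56 ± 0.77. All 3 were separated in both sections and passed limma with the spread of 10 arrays (adjusted p of 0.0096 for CIN1, 0.0095 for CIN2 and 0.0149 for TUB3), and none passed it over the 4 arrays (adjusted p of 0.100, 0.100 and 0.111).

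The other members of the tubulin list behaved differently from these 3 at the low doses. CIN4, a small GTPase that acts with CIN1 and CIN2, had log2 ratios of -0.02, 0.00 and -0.23 on the arrays of 0, 1 and 5 µg/ml, against 2.43 on the 10 µg/ml array. Its strain thus stood out on 1 of the higher arrays and not on the other, and its difference of 1.11 ± 0.93 became -0.22 without the 10 µg/ml array. The ALF1 strain, without the cofactor B homolog, lay on the other side, at 0.46, -0.41, -2.73 and -1.85. Its difference of -2.32 ± 0.47 was a downward separation in both sections, at -2.29 and -2.35. The PAC2 strain, without the cofactor E homolog, was at 0.30, -0.21, -1.67 and -1.98, and its sections differed, at -0.67 and -3.17. RBL2, which binds beta-tubulin, was at -0.56, -0.36, -0.56 and -0.39, with a difference of -0.02 ± 0.24 whose sign turned with the scaling of the arrays. Of the 7 strains on this list, 3 were separated upward and 2 downward, and the list median of 1.11 became -0.10 without the 10 µg/ml array.

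All 6 prefoldin strains lay above their values at the lower doses, with a list median of 2.79. PFD1 (YJL179W) was at 0.20, 1.22, 4.00 and 6.32 at 0, 1, 5 and 10 µg/ml, a difference of 4.45 ± 0.89. GIM5 (YML094W) was at -0.28, 1.03, 4.12 and 5.19, a difference of 4.28 ± 0.61. YKE2 (YLR200W) was at 0.39, 0.80, 2.96 and 4.61, a difference of 3.19 ± 0.62. These 3 subunits were separated in both sections, and both arrays at the higher doses lay well above both at the lower ones. PAC10 was at 0.50, 1.16, 2.56 and 3.87 and was separated in the mean of its spots, but the sections were at -0.17 and 4.93. GIM4 had a difference of 2.30, with -1.29 at 0, 0.21 at 1, 1.09 at 5 and 2.44 at 10 µg/ml. GIM3 had a difference of 1.52, again from 1 section, at -0.54 against 3.60. At 1 µg/ml, PFD1, PAC10 and GIM5 ranked 123, 138 and 193 from the top of 5323 strains. The list median was 0.16 at 0, 0.96 at 1, 2.76 at 5 and 4.24 at 10 µg/ml.

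**Figure D2:**
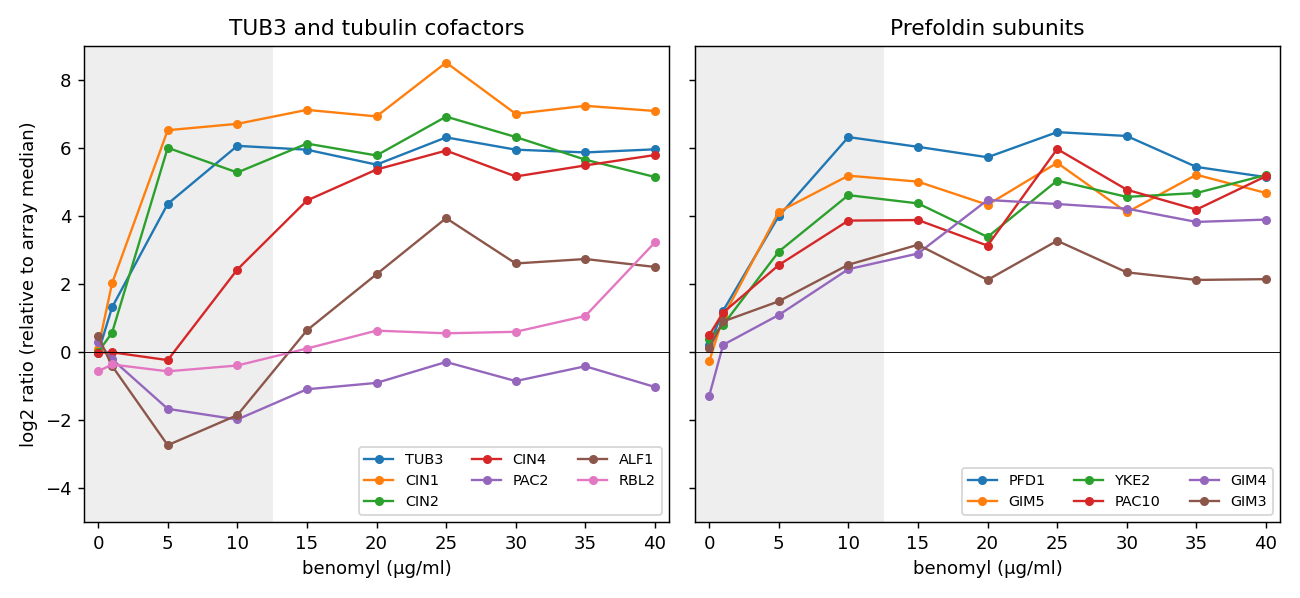
Log2 ratio relative to the array median (y axis) against benomyl dose in µg/ml (x axis) for the 7 tubulin strains (left) and the 6 prefoldin strains (right), 1 array per dose. The shaded doses are the 4 arrays compared, where CIN1, CIN2 and TUB3 and all prefoldin subunits lie above their values at 0 and 1 µg/ml and ALF1 and PAC2 lie below.

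Strains that act at kinetochores and on spindle microtubules stood much closer to the median at these doses. Of 6 strains of the kinetochore branch of the spindle checkpoint, which delays anaphase until chromosomes are attached, 1 was separated upward, and none was separated in both sections. That strain lacks SGO1, which guards centromeric cohesion and senses tension, and it was at -0.14, 0.27, 1.46 and 1.97, a difference of 1.65. BUB3, a checkpoint protein, was at -0.23, 0.26, 1.16 and 1.00. MAD3, another, was at -0.23, 1.01, 0.89 and 1.15, so its value at 1 µg/ml was already as high as at the higher doses. Its difference of 0.63 came from 1 section, at -0.31 against 1.56. MAD2 and MAD1, the core of the checkpoint signal, had differences of 0.29 and 0.41. All 6 differences were above 0, with a list median of 0.52.

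The spindle position list and the motor lists held no separated strain. Over all strains 2.12% were separated upward and 5.03% downward, so in lists this small a count of 0 is near those shares. Among 7 strains of the spindle position checkpoint and mitotic exit the largest differences belonged to LTE1, an activator of mitotic exit, at 0.98, and BUB2, an inhibitor of it, at 0.87, and the sections of BUB2 were at 0.08 and 1.67. Of 11 strains of kinesins and plus-end proteins, the kinesin CIN8 had a difference of -1.42, CIK1, the partner of the motor KAR3, one of -1.11, and the bundling protein ASE1 one of 0.97. The CIK1 strain was already low at the lower doses, at -0.87 and -0.72, against -1.62 and -2.19 at 5 and 10 µg/ml. Of 11 dynein and dynactin strains, 9 had differences above 0, with a median of 0.22, and NUM1, the cortical anchor of dynein, was highest at 0.90. In the CTF19 kinetochore complex NKP2 was the only 1 of 10 to be separated, in both sections, at -0.02, -0.04, 1.81 and 1.59. The SWR1 complex, which places histone H2A.Z, and the sister chromatid cohesion list held 0 separated of 10 strains each, with medians of 0.17 and -0.13.

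Mitochondrial strains followed in the upward direction. The most marked difference among them belonged to the strain without MIR1 (YJR077C), the mitochondrial phosphate carrier, at 0.41, 0.20, 3.56 and 5.03, a difference of 3.99 ± 0.55. Phosphate brought in by this carrier is a substrate of ATP synthase. Among 18 strains without ATP synthase subunits or their assembly and expression factors, 12 were separated upward and 0 downward, 8 of them in both sections, with a median of 1.72. This list was drawn up after the values were seen, so its count is a description. ATP5, of the stalk of the enzyme, was at 0.22, -0.18, 2.50 and 2.14. ATP17, a subunit of the membrane part, was at 0.27, -0.09, 2.28 and 2.14, and ATP1, the alpha subunit of the catalytic head, at 0.43, 0.01, 2.29 and 2.10. ATP3, of the central stalk, lay on the other side, at 0.12, 1.41, 0.01 and -1.09, and ATP15, of the same stalk, was at -0.26 and -0.07 at 5 and 10 µg/ml.

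The electron-transport complexes did not share that size of difference. Of 19 strains of these complexes and their assembly factors, a list also drawn up after the values were seen, 1 was separated upward and 0 in both sections, with a median of 0.55. The wider list of 60 respiratory chain and ATP synthase strains held 10 separated upward, 7 in both sections, and 0 downward. In the mitochondrial ribosome 57 of 67 strains had differences above 0, with a median of 0.72, and 5 were separated upward, 0 of them in both sections. MRPL16, of the large subunit, was at -0.61, -0.08, 1.90 and 1.15. The list median was 1.08 at 5 and 0.40 at 10 µg/ml, so the 5 µg/ml array was the higher of the pair. Of 36 strains of mitochondrial translation factors and tRNA synthetases 4 were separated upward and 1 downward. AEP2, needed to make an ATP synthase subunit inside mitochondria, and ATP22, which acts likewise for another subunit, were separated in both sections, at differences of 1.64 and 1.83. The downward one was PET494, an activator of cytochrome oxidase subunit synthesis, with sections at 0.44 and -3.42.

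The retrograde pathway, by which mitochondria signal to nuclear genes that keep glutamate made, had all 3 of its RTG members among the separated strains. RTG1 and RTG3 encode a pair of transcription factors and RTG2 encodes their activator. RTG1 (YOL067C) was at -0.23, -0.47, 1.49 and 2.98, RTG2 at 0.03, 0.02, 1.64 and 3.34, and RTG3 at -0.25, -0.27, 1.13 and 3.38, with differences of 2.59 ± 0.56, 2.47 and 2.52. ACO1 (YLR304C), the aconitase of the citric acid cycle, was at -0.56, -0.39, 1.74 and 4.26, a difference of 3.47 ± 0.88. All 4 were higher at 10 than at 5 µg/ml and were separated in both sections. MKS1, an inhibitor of the pathway, was at -3.07 at 5 and 0.61 at 10 µg/ml, so its arrays at the higher doses lay on opposite sides. Of the 18 strains on the list of retrograde signalling and the citric acid cycle, 4 were separated upward and 0 downward, with a median of 0.72.

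Strains that supply carboxylic acids to mitochondria, a list chosen after the values were seen, held 7 of 23 separated upward, 6 of them in both sections, and 1 downward. PYC1 (YGL062W), a pyruvate carboxylase that makes oxaloacetate, was at 0.02, -0.19, 2.62 and 3.16, a difference of 2.98 ± 0.30. MAE1 (YKL029C), the malic enzyme, was at -0.18, -0.23, 2.73 and 2.91, and IDP1 (YDL066W), a mitochondrial isocitrate dehydrogenase that uses NADP, at -0.37, -0.84, 1.34 and 3.19. DIC1, a dicarboxylate carrier, and MDH2, the cytosolic malate dehydrogenase, had differences of 2.26 and 2.24. The downward member was MPC2, a subunit of the mitochondrial pyruvate carrier, at -0.15, -0.69, -3.02 and -3.18. In iron-sulfur cluster assembly, again a list chosen after the values were seen, 9 of 9 differences were above 0 and 4 strains were separated upward, 3 of them in both sections. ISU1 (YPL135W), a scaffold for cluster assembly, was at 0.01, -0.03, 3.18 and 3.35, a difference of 3.27 ± 0.23, and NFU1, a late-acting factor, at -0.06, 0.20, 2.36 and 2.36.

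Among the 15 largest upward differences, 2 strains stood outside these groups. WHI2 (YOR043W), which acts in the general stress response together with the phosphatase PSR1, was at 0.14, 0.16, 2.93 and 3.41, a difference of 3.02 ± 0.27. PSR1 was separated as well, at -0.13, -0.45, 1.42 and 0.88, though not in both sections. They were the only 2 of 22 strains on the Ras and protein kinase A list that were separated. RPO31 (YOR116C) encodes the largest subunit of RNA polymerase III and is needed for growth. Its value was low without drug and at 1 µg/ml, at -3.37 and -1.85, and near the median at 5 and 10 µg/ml, at -0.03 and 0.00, so the size of its difference came from the lower doses.

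**Figure D3:**
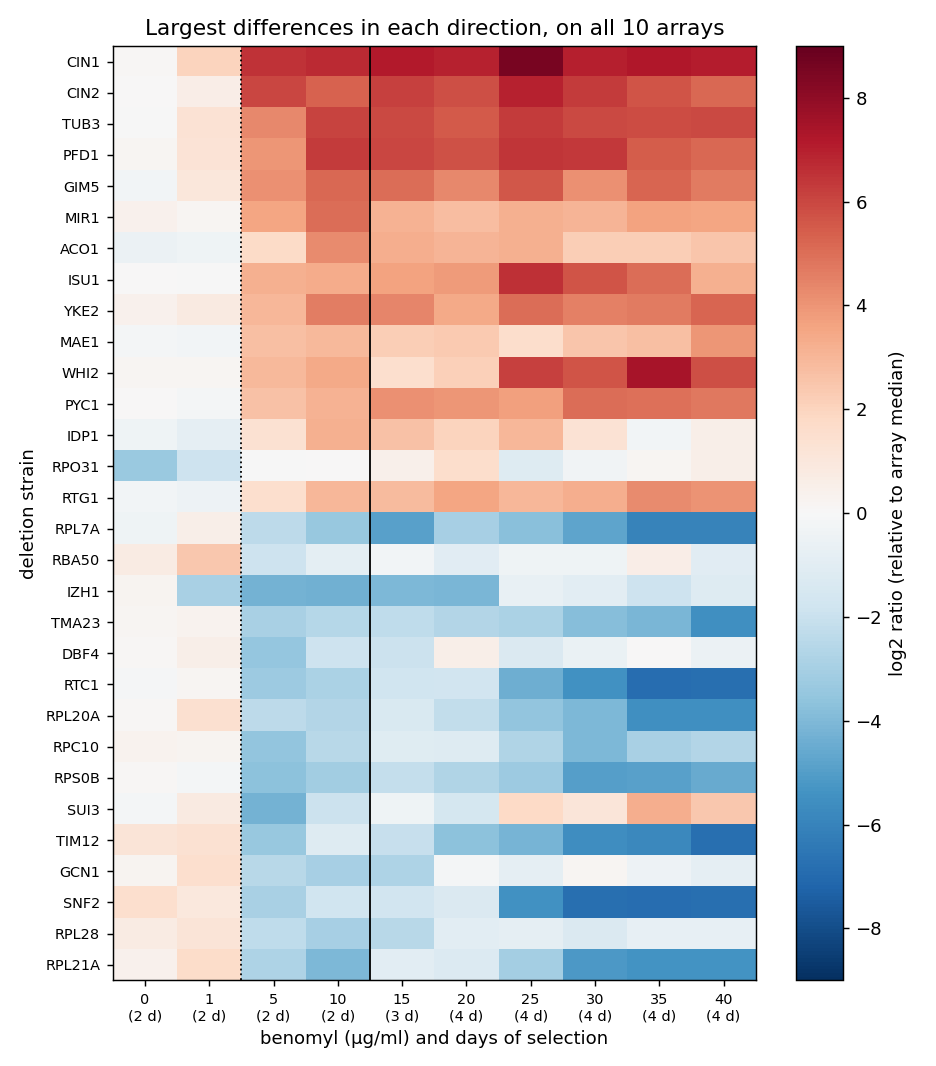
Colour shows the log2 ratio relative to the array median for the 15 largest upward and 15 largest downward differences whose sections share a sign (rows) on all 10 arrays (columns, with benomyl dose in µg/ml and days of selection). The dotted line parts the 2 groups compared and the solid line marks the 6 later arrays. CIN1 to GIM5 stay red at every later dose, while SUI3 turns from blue to red.

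In the downward direction, strains lacking cytosolic ribosomal protein genes were the most numerous among the lists examined. Most of these proteins are encoded by a pair of near-identical genes, so a strain without 1 copy can live. Of 47 small-subunit strains 18 were separated downward and 0 upward, 12 of them in both sections, with a median of -1.49. Of 61 large-subunit strains 21 were separated downward and 1 upward, 11 and 1 in both sections, with a median of -1.03. With the spread of 10 arrays limma called 15 small-subunit and 4 large-subunit strains lower and 0 higher. The list medians at 5 and 10 µg/ml were -1.66 and -1.08 for the small subunit, against -0.07 and -0.05 at 0 and 1 µg/ml.

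Gene pairs behaved unevenly. RPL21A (YBR191W) had the largest downward difference of all strains, at 0.42, 1.64, -2.75 and -4.05, which is -4.43 ± 0.64. Its partner RPL21B was at -0.77, 1.12, 0.34 and 0.09. RPL7A (YGL076C) was at -0.39, 0.52, -2.35 and -3.38, and RPL7B at 0.12, 0.34, 0.58 and 0.36. RPS18A had a difference of -2.51, while RPS18B was at 0.07, with sections of opposite sign at -1.70 and 1.85. In other pairs both copies were separated in both sections, namely RPS4A and RPS4B at -2.22 and -2.35, RPS29A and RPS29B at -2.46 and -2.31, and RPS0B and RPS0A at -3.39 and -1.64. RPL14A was the only ribosomal protein strain separated upward, at -0.15, -0.04, 1.16 and 1.65. These pairs were chosen after their values were seen. Each strain is read through its own barcode, so near-identical copies are not mixed in this measure.

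Ribosome assembly followed the same direction. In a list of 19 non-essential assembly and stalk factors, chosen after the values were seen, all 19 differences were below 0 and 13 strains were separated downward, 8 in both sections, with a median of -1.57. TMA23 (YMR269W), a nucleolar assembly factor, was at 0.16, 0.35, -2.90 and -2.54, a difference of -2.97 ± 0.26. REI1, which acts late in large-subunit maturation, was at 0.20, -0.25, -3.29 and -2.40, and RPP2B, of the ribosomal stalk, at -0.19, -0.79, -3.56 and -3.01.

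The pathway that reports amino acids to the growth kinase TORC1 had 8 of 16 strains separated downward, 7 in both sections, with a median of -1.55. RTC1 (YOL138C), of the SEACAT complex, was at -0.08, 0.20, -3.27 and -2.87, a difference of -3.13 ± 0.28. GTR2 and GTR1, the GTPases of the EGO complex, had differences of -2.71 and -2.38, and its other subunits SLM4 and MEH1 were both at -2.62. LST4 and LST7, which act on these GTPases, were at -2.46 and -2.35. NPR2 and NPR3, which inhibit TORC1, lay on the other side, at 0.64 and 1.13, and neither was separated. In the same direction as the EGO strains were GCN3, a subunit of the translation initiation factor eIF2B that controls the amino acid starvation response, at 0.26, 0.49, -2.05 and -1.62, and LEU4, an enzyme of leucine synthesis, at -0.21, -0.27, -3.28 and -2.17. Of 66 strains of amino acid synthesis and its control 9 were separated downward, 4 in both sections, and 0 upward, while the list median of -0.03 was close to that of all strains.

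Strains without the vacuolar ATPase, the proton pump that acidifies the vacuole, had a median of -1.41. Of 20 such strains 10 were separated downward, 4 in both sections, and 19 had differences below 0. VMA6, of the membrane part, was at 0.22, 0.44, -2.51 and -1.78, and VMA5, of the peripheral part, at 0.15, -0.03, -3.10 and -1.67. VMA1, the catalytic subunit, had a difference of -2.37, and VMA8, of the central stalk, one of -2.07.

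Of 29 strains of peroxisome biogenesis and beta-oxidation 11 were separated downward, 7 in both sections, and 0 upward. All 11 lack a gene for membrane biogenesis or for import of matrix proteins. PEX3, which inserts membrane proteins, was at 0.09, 0.33, -3.42 and -1.95, and the import docking factors PEX17, PEX13 and PEX14 had differences of -2.74, -2.49 and -2.45. The import receptor PEX5 was at -0.23, 0.12, -3.27 and -1.54. Strains without the beta-oxidation enzymes POT1 and FOX2 were at 0.08 and 0.56, and those without PEX11, PEX25 and PEX27, which set peroxisome number, at -0.03, 0.11 and 0.43. POX1, the enzyme of the opening step of beta-oxidation, had a difference of -1.14 and was not separated. The import genes PEX6 and PEX4 were not separated either, at -1.23 and -0.98. All 11 separated strains were lower at 5 than at 10 µg/ml. That order is not particular to them. Of the 115 strains separated downward in both sections, 27 were farther from the median at 10 than at 5 µg/ml. The medians of those 115 strains were -2.45 at 5 and -1.85 at 10 µg/ml.

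The GID complex is a ubiquitin ligase that marks enzymes of glucose synthesis for destruction. In the list of its 8 strains, chosen after the values were seen, all had differences below 0 and 4 were separated downward, 3 in both sections. VID28 was at 0.05, 0.09, -3.50 and -1.99, VID30 at -0.32, 0.11, -2.79 and -2.16, and GID8 at -0.04, -0.26, -2.89 and -1.94. In the URM1 pathway, which adds sulfur to wobble positions of tRNA and was likewise chosen after the values were seen, 4 of 6 strains were separated downward, all 4 in both sections. URM1 itself, the sulfur carrier, was at 0.06, -0.62, -2.76 and -2.92. UBA4, its activating enzyme, and NCS2 and NCS6, which modify the tRNA, had differences of -2.13, -1.96 and -1.94, and the acceptor AHP1 was at -0.01.

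Of 29 autophagy strains 5 were separated downward, 3 in both sections, and 0 upward, with a list median of -0.43. ATG8, the ubiquitin-like protein of the forming membrane, was at -0.20, 0.01, -3.64 and -1.85, ATG1, the kinase that starts autophagy, at -0.46, 0.16, -3.21 and -1.94, and ATG32, the receptor for mitochondria, at 0.20, -0.14, -3.13 and -1.36. ATG11, a scaffold of selective autophagy, had a difference of -2.29. In contrast, ATG5, ATG7, ATG3, ATG10, ATG12 and ATG16, the conjugation machinery, lay between -0.48 and 0.24.

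Among transcription complexes the non-essential Mediator subunits were the most uniform. All 14 differences lay below 0, with a median of -1.39, and 4 strains were separated downward, 2 in both sections. SSN8, the cyclin of the kinase module, was at 0.14, 0.04, -2.27 and -1.48, and NUT1 at 0.02, 0.03, -2.15 and -1.57. The strain without SNF2 (YOR290C), the motor of the SWI/SNF chromatin remodeller, had the largest downward difference after RPL21A and RPL28, at 1.50, 0.95, -2.93 and -1.82, which is -3.60 ± 0.47. The difference rests in part on high values at 0 and 1 µg/ml. Another 1 of the 10 SWI/SNF strains, SNF5, was separated, at a difference of -1.77. SAGA and PAF1 lists had 0 separated of 12 and 7 strains, with medians of -0.60 and -0.72, and in the large Rpd3 complex 1 of 12 was separated, CTI6, at -2.21 with sections at -0.84 and -3.58.

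The cell wall list had 15.79% of its strains separated downward and 5.26% upward. In the drug efflux list 7.14% were separated downward and 0.0% upward. All strains together had 5.03% downward and 2.12% upward. GAS1, a glucan-remodelling enzyme of the cell wall, was at 0.26, 0.17, -3.23 and -2.08, and FKS1, a glucan synthase, at -0.10, 0.15, -2.18 and -2.24. Both were separated in both sections, and of 19 strains of the cell wall list 3 were separated downward and 1 upward. Of 14 strains of drug efflux transporters and their regulators only YRR1, a transcription factor, was separated, at 1.06, 0.93, -2.07 and -1.37, and it had no value from 1 of the sections. The next largest differences on this list were those of PDR15, at -1.59 with sections at -0.08 and -3.09, and PDR1, at -1.04. Neither was separated. On the arrays of 5 and 10 µg/ml the transporter SNQ2 had values of -0.30 and -0.75, and the transporter PDR5 values of 0.49 and 0.29. The list median was -0.19. The meiosis list, whose genes act before the haploids arise, had 0 separated of 39 strains and a median of 0.05.

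**Figure D4:**
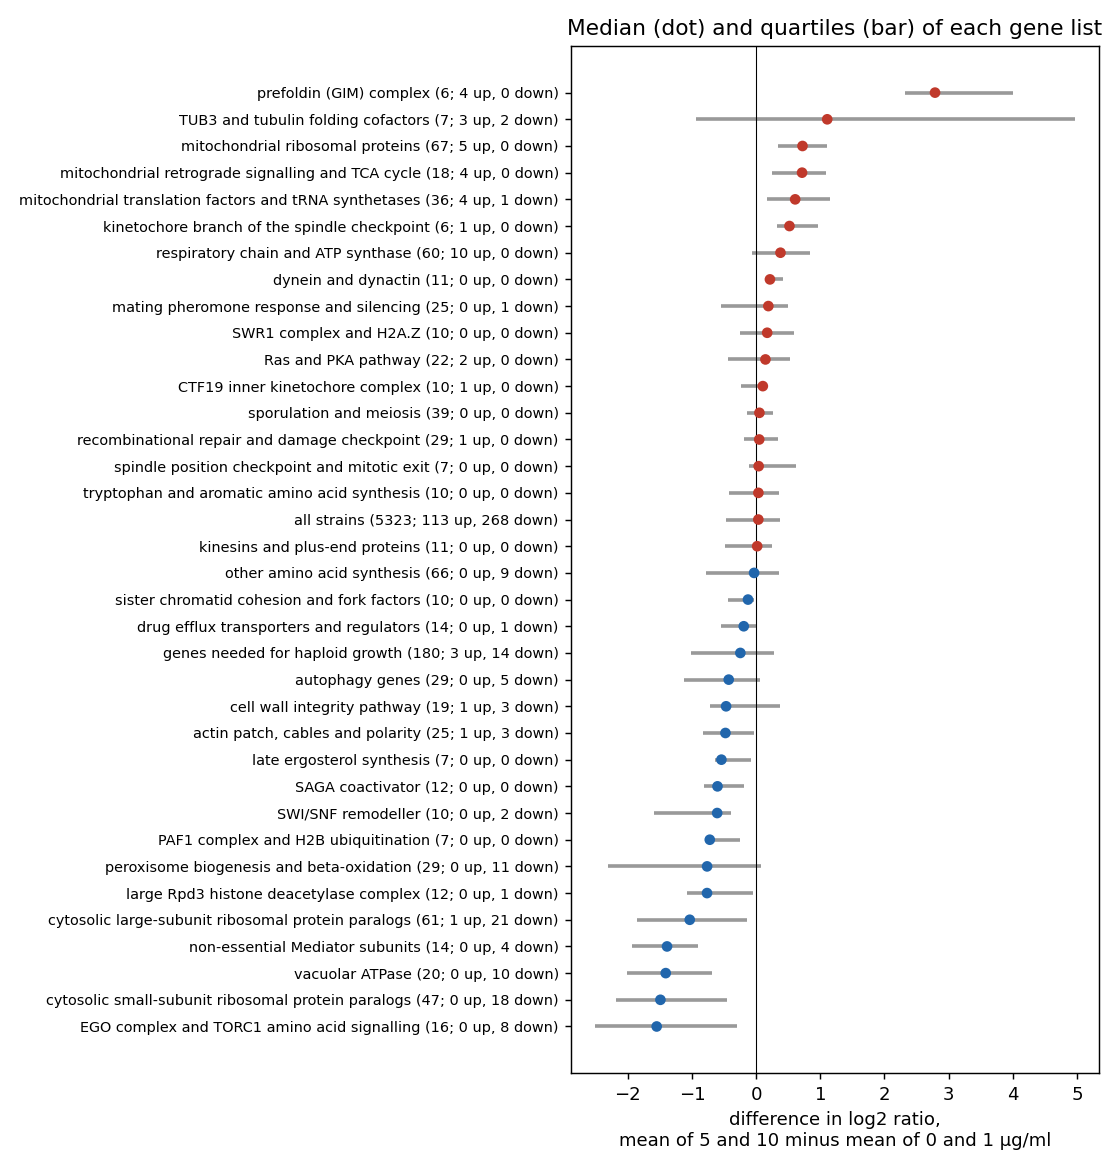
Dots are medians and bars quartiles of the difference in log2 ratio (x axis, mean of 5 and 10 minus mean of 0 and 1 µg/ml) for each gene list other than the 10 drawn up after the values were seen (y axis). Beside each name stand the number of strains measured and the numbers separated upward and downward. Of the lists plotted, prefoldin has the highest median, 2.79, and the EGO and TORC1 list the lowest, -1.55.

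Several of the 15 largest downward differences belong to genes needed for growth, so haploid cells need not be the source of their signal. They are RPL28, at 0.74, 1.15, -2.30 and -3.01, TIM12, SUI3, RPC10, DBF4 and RBA50. Their sections often differed, at -1.76 and -5.44 for RPL28, -5.51 and -1.14 for RPC10 and -1.73 and -4.14 for RBA50. GCN1 (YGL195W), an activator of the starvation kinase GCN2, was at 0.24, 1.49, -2.48 and -2.96, with sections at -1.54 and -5.64. IZH1 (YDR492W), a membrane protein of zinc homeostasis, was at 0.28, -2.95, -4.23 and -4.33, so it was low from 1 µg/ml on.

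The 6 arrays at 15 to 40 µg/ml, with 3 or 4 days of selection, share no array with the comparison and show where the separated strains lay later. Of the 113 strains separated upward, 91 had a median of at least 1 over these arrays and 0 a median of -1 or lower, against 8.13% of all strains at 1 or higher. Of the 268 separated downward, 167 had a later median of -1 or lower and 8 of at least 1, against 8.3% of all strains at -1 or lower. For the 63 and 115 strains separated in both sections these counts were 58 and 0, and 99 and 3. The 3 that turned were ALF1, SUI3 and VMA5. ALF1 went from -2.73 at 5 and -1.85 at 10 to 0.64 at 15 and 3.94 at 25 µg/ml.

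Groups that lay low at 5 and 10 µg/ml took unlike courses later. For the vacuolar ATPase strains VMA1, VMA5 and VMA8 the 15 µg/ml array gave -0.31, -0.07 and -0.46, and the 25 µg/ml array gave 3.59, 3.61 and 1.83. The list of 20 vacuolar ATPase strains did not follow them as a whole, since its median was 0.13 at 25, -0.52 at 30 and -0.16 at 40 µg/ml, and VMA6 went to -1.83 on the last of these. For the peroxisome strains PEX3, PEX13 and PEX15 the 20 µg/ml array gave -0.40, 0.69 and 0.44, and the 25 µg/ml array gave -3.22, -2.57 and -2.37. The GID list median was -1.35 at both 5 and 10, -0.29 at 20 and -2.58 at 25 µg/ml. The median of the EGO and TORC1 list stayed below 0 from 5 µg/ml on, at -0.91 at 15 and -2.45 at 25 µg/ml. The arrays at 20 to 40 µg/ml all had 4 days of selection, and the 15 µg/ml array had 3. Between arrays that differ in both, dose and days of selection cannot be told apart.

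**Figure D5:**
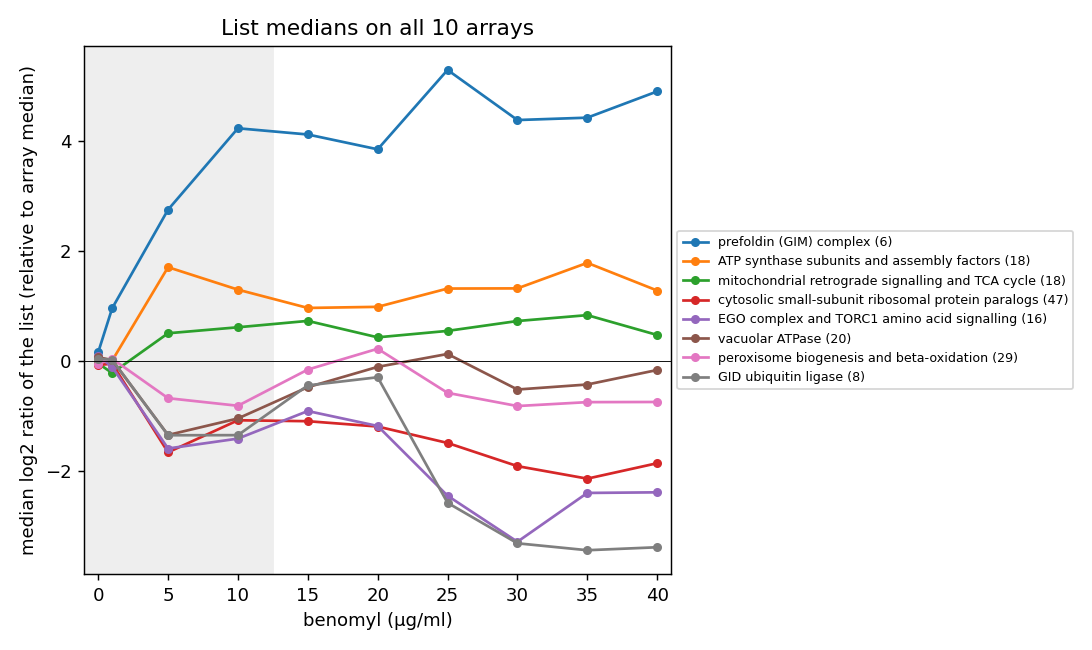
Median log2 ratio of 8 gene lists, relative to the array median (y axis), against benomyl dose in µg/ml (x axis), with the number of strains in brackets and 1 array per dose. The shaded doses are the 4 arrays compared. The prefoldin line is highest from 1 µg/ml on, the ATP synthase line stays near 1 to 2 from 5 µg/ml, and the GID line comes closer to 0 at 15 and 20 µg/ml before its lowest values.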

How the data were processed

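For each of 22575 spots per array the authors deposited a log2 ratio, made from GenePix 5.1 readings of GenePix 4000B images, per the labels. Numerator and normalization are not given in the sources used here. The platform annotation names 18794 spots, and symbols were updated through RefSeq for 5321 of 5325 strains. Each array was centred on the median of its named spots, spots were averaged per strain, and 11 ratios coded 1000000 were set to missing. Strains on all 4 arrays were fitted with limma 3.58.1 in R 4.3.3 (2 residual and 2.36 prior degrees of freedom, two-sided, Benjamini-Hochberg over 5323 strains). The fits were tested on simulated data with planted differences larger than most of those seen here, so smaller differences were not covered. The number of arrays limits the precision.

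Named strains were the 15 largest separated differences each way with the same sign in both sections, all tubulin and prefoldin members, up to 4 called or separated members of each other list, and up to 3 members of the checkpoint, motor and efflux lists. Others were named after their values were seen. The comparison, 35 lists of 984 genes (952 measured) and the rule were chosen with earlier results of these data known, and 10 more lists after the values were seen. Alternatives covered scaling, spot summary, sections, single arrays, spread and thresholds.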

Additional observations from a re-analysis of the deposited data

Results flagged for a closer look

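Spots with no gene name in the platform annotation are outside every comparison above. Of the 1215 such spots with a value on all 4 arrays, 22.3% were at least 2-fold off the median at 5 µg/ml and 20.7% at 10 µg/ml, above the 10.5% seen at both 0 and 1 µg/ml. Single named spots gave 10.1%, 11.2%, 24.7% and 22.5% at 0, 1, 5 and 10 µg/ml. Of the unnamed spots 32 (2.63%) were separated upward and 69 (5.68%) downward, against 2.9% and 6.1% of named spots. Which strains these spots read is not known here.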

How the results depend on the processing

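Limma called 0 strains over the 4 arrays in each alternative but 2, namely 41 higher and 62 lower among strains whose sections share a sign, a filter that uses the readout, and 41 and 100 with the spread of 10 arrays. Leaving out 1 array at a time gave 208 to 276 separated upward and 460 to 487 downward, since 1 array of a group is then enough. At 2 log2 units 14 and 36 strains were separated, at 0.5 log2 units 344 and 555, and in each section on its own 63 and 115, an alternative added after seeing the data. Quantile normalization left 144 downward. With arrays scaled to equal spread the 978 strains that lay 2-fold or more from the median at 5 µg/ml became 591, and the 258 separated strains that also lay beyond 1 log2 unit later became 128, or 130 after quantile normalization.

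Signs turned in few named values. Leaving out 1 array at a time, the tubulin list median ran from -0.101 without the 10 µg/ml array to 2.44, and CIN4 from -0.223 to 2.44. In section 1 alone GIM3 was at -0.543, MAD3 at -0.306, PAC10 at -0.171 and PET494 at 0.437. RBL2, near 0, was at 0.314 with equal spread, 0.360 after quantile normalization, 0.010 in section 2, -0.115 to 0.084 without single arrays (0.070 without the 5 µg/ml array) and 0.047 as a line against log2(dose + 1). No other of the 107 strains named by the rule turned in the alternatives run. Nor did any other median of 0.5 or more in size among the 35 lists drawn up first. Strains and lists chosen after the values were seen were not part of this check. No paired analysis was possible because no dose has a second array and no label pairs the arrays. Ratios in whole hundredths have a floor at 0.01, so low values are understated.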

Other observations

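Some separated strains lacked genes that lie beside each other on a chromosome, by the gene order of the RefSeq annotation. Of 5303 pairs of adjacent measured genes, 13 had both strains separated upward, 23 both downward and 13 in opposite directions. Over all strains 2.12% were separated upward and 5.03% downward. How many such pairs these shares alone would give was not worked out, and an effect of position was not tested. These pairs held 22 of the 113 upward and 44 of the 268 downward strains. Examples, chosen after their values were seen, are PFD1 with ATP12, ATP2 with DMO1 and IBA57 on its sides, MEC3 with GUF1, and MRPL15 with ATG39 and SPH1. ATP12 had a difference of 1.72, GUF1 of 1.91, DMO1 of 1.79 and SPH1 of 1.73. ATG39, a receptor for autophagy of the nucleus, had one of 1.82. Whether a deletion touched the gene beside it was not tested.

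The 78 strains whose systematic names place the gene on chromosome I had a median difference of -0.47, while the medians of the other 15 chromosomes lay between -0.04 and 0.22. The lower median came from section 2 of the layout, at -0.70 against 0.12 in section 1. The chromosome I median was 0.11 at 0, 0.03 at 1, -0.44 at 5 and -0.25 at 10 µg/ml.

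Outside the lists, DBF2, a kinase of mitotic exit, was separated upward in both sections, at -0.10, -0.28, 2.45 and 1.80, and COG1, of a Golgi tethering complex, at -0.05, -0.55, 2.08 and 2.07. Downward in both sections were KRE6, an enzyme of glucan synthesis, at -0.47, 0.26, -2.92 and -2.63, and the RNA-degrading enzyme XRN1 at 0.00, -0.22, -2.77 and -2.10. In glycolysis, a list chosen after the values were seen, 4 of 16 strains were separated downward, all in both sections. PFK1 and PFK2, the subunits of phosphofructokinase, had differences of -2.51 and -2.49, the glyceraldehyde-phosphate dehydrogenase TDH3 one of -2.27 and the hexokinase HXK2 one of -1.85. In the OCA phosphatase list, also chosen so, 6 of 6 differences were below 0 and 4 were separated downward, 2 of them in both sections, led by OCA6 at -2.42. The 5 Elongator strains lay between -1.16 and -0.26 with 0 separated.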
